A study of Mus musculus with 12 samples.

Results

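T cell and cytotoxic lymphocyte genes were followed in the mouse duodenum over the weaning period. The list was written by symbol as 40 genes of T cells, natural killer cells and intraepithelial lymphocytes and sets no threshold on measured values, but it was chosen with earlier results of these data known. Of these, 38 were measured among 19938 genes, each by 1 feature of the array, and Lck and Il2rg were not measured here. The study hybridised duodenal RNA of strain 129 mice in 4 groups of 3 arrays: Onecut2 knockout at postnatal day 30, Onecut2 knockout at day 15, wild type at day 30 and wild type at day 15. The knockout mice are described only as 129 mice lacking Onecut2, a transcription factor gene, and how the gene was deleted is not stated in the sources used. The mice were untreated. The RNA of an array came from 5 to 8 mice of mixed sex, combined before labelling, so the error below is the spread between pools and not between animals. All values are RMA expression values on the log2 scale, on which a difference of 1 is a 2-fold difference. The number of pools, 3 in each group, limits the precision.

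The labelled genotypes and tissue were checked first. Onecut2 had 8.24, 8.25 and 8.18 in knockout duodenum and 9.63, 9.50 and 9.62 in wild type duodenum at day 30, and 8.09, 8.12 and 8.20 in knockout duodenum and 9.55, 9.69 and 9.68 in wild type duodenum at day 15. It was lower in every knockout array than in every wild type array. Of 4 measured genes that mark sex, 0 were called between genotypes at either day by limma. An unadjusted p under 0.05 was seen for 2 of them at day 30, against 11.2% of all genes. For the difference of the genotype effects, day 30 minus day 15, it was seen for all 4, against 8.85%, with 0 called. With age, 1 was called, lower at day 30 in wild type duodenum. The part of sex in the differences of the members was not tested beyond fits with Xist as a covariate. The duodenal marker Pdx1 averaged 10.19 and 9.75 in knockout duodenum and 10.43 and 9.96 in wild type duodenum at days 30 and 15. Among markers of lower gut, ileal Fabp6 averaged between 4.81 and 4.95 in the 4 groups, and colonic Car1 between 6.11 and 6.25. The mean of 8 pancreatic acinar genes ranged over arrays from 12.46 to 13.04 in knockout and from 12.77 to 13.52 in wild type duodenum. Averaged over both days, their median log2 difference, knockout minus wild type, was -0.35, against -0.007 for all genes. By limma 1 was called lower, and 7 had an unadjusted p under 0.05, against 3393 of all 19938 genes. At either day alone 0 were called. The part of pancreas in the members' differences was not tested. The replicate 1 pools of day 15 stood apart in both genotypes for Cxcl10, a chemokine induced by interferon gamma, at 7.09 in knockout and 7.09 in wild type duodenum, while the other day 15 pools had 10.30 and 9.92 in knockout and 8.52 and 8.76 in wild type duodenum. Without these pools (a choice made after seeing the data) 29 members were higher with age (limma adjusted p under 0.05) in knockout and 30 in wild type duodenum, as with them.

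The wall of the small intestine holds a large population of T cells, many of them lodged between the epithelial cells. These intraepithelial lymphocytes are mostly CD8 T cells, with gamma-delta T cells among them, and they carry granules of perforin and granzymes that kill infected or damaged cells. In mice the population is sparse during suckling and fills up around weaning, when solid food and a new microbiota arrive. Recruitment depends on the chemokine receptor Ccr9 and its epithelial ligand Ccl25, retention on the integrin that Itgae encodes and its partner E-cadherin, and survival on interleukin 15 presented by neighbouring cells.

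Gzma and Gzmb carried the largest age differences, so the promoters of 4 cytotoxic granule genes are shown, Prf1 among them as a granule gene that did not pass with age, from 250 bases before to 50 bases after the annotated start. They are given 5′ to 3′ on the gene's strand from RefSeq on GRCm38.p6. Capitals mark matches to the RUNX motif TGTGGT and the T-box motif AGGTGT, searched on both strands, so ACCACA and ACACCT are the reverse forms. The factors encoded by the members Runx3 and by Tbx21 and Eomes are known to bind motifs of these kinds in cytotoxic T cells. Gzma lies at chr13:113100932-113101231 (minus strand), Gzmb at chr14:56262285-56262584 (minus strand), Nkg7 at chr7:43436888-43437187 (plus strand) and Prf1 at chr10:61297586-61297885 (plus strand).
Gzma: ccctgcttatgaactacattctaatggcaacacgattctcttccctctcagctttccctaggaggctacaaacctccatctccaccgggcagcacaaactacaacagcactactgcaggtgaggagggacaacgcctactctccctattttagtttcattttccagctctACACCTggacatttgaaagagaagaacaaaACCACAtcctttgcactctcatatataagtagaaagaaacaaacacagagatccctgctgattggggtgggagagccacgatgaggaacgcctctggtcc
Gzmb: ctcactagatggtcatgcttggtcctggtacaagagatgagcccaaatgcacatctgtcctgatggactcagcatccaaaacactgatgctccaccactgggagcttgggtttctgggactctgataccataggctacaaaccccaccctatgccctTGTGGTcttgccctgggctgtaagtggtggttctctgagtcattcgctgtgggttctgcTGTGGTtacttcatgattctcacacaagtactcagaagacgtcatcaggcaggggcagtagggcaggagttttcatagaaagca
Nkg7: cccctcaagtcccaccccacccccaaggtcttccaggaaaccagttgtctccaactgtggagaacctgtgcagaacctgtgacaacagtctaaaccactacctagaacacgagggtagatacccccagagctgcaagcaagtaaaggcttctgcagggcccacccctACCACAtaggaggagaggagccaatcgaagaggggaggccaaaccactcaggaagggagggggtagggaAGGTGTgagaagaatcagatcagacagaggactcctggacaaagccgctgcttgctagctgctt
Prf1: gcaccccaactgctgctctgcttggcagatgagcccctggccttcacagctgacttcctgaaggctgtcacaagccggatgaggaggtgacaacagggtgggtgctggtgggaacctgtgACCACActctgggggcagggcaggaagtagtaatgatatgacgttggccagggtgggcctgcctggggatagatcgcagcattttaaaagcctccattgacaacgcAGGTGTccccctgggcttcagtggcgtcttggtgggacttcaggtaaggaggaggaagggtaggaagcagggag
Gzmb held 2 RUNX matches and no T-box match, while Gzma, Nkg7 and Prf1 held 1 of each, with no overlap between matches. Of the 38 members, 25 had a promoter in the RefSeq table. The RUNX motif was in 11 of these 25 promoters (44.0%), against 16.9% of all 27025 promoters of the table. The T-box motif was in 7 of the 25 (28.0%), against 13.9% of all. A match describes the letters and is not evidence of binding, and a promoter without a match says nothing about the factor.

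At day 30 the lymphocyte genes were higher than at day 15 in both genotypes. In knockout duodenum 29 of the 38 members rose (limma adjusted p under 0.05), 0 fell and 9 did not pass, where 13.8% of all genes rose. In wild type duodenum 30 rose, 0 fell and 8 did not pass, where 12.3% of all genes rose. At an unadjusted p under 0.05 the counts of members that differed in either direction were 33 and 34, where 40.3% and 39.1% of all genes did. The median log2 difference of the members was 0.49 in knockout and 0.53 in wild type duodenum, and that of all genes was 0.03 and 0.02. All 38 members had a difference above 0 in each genotype, compared with 55.7% of all genes in knockout and 54.6% in wild type duodenum. There were 28 members that rose in both genotypes, which is 28 of the 29 and 28 of the 30. In 27 members every day 30 array of both genotypes stood above every day 15 array, a pattern seen in 10.1% of all genes. RNA was taken from whole duodenal segments, so fewer lymphocytes and less of each RNA per lymphocyte at day 15 cannot be told apart.

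**Figure D1:**
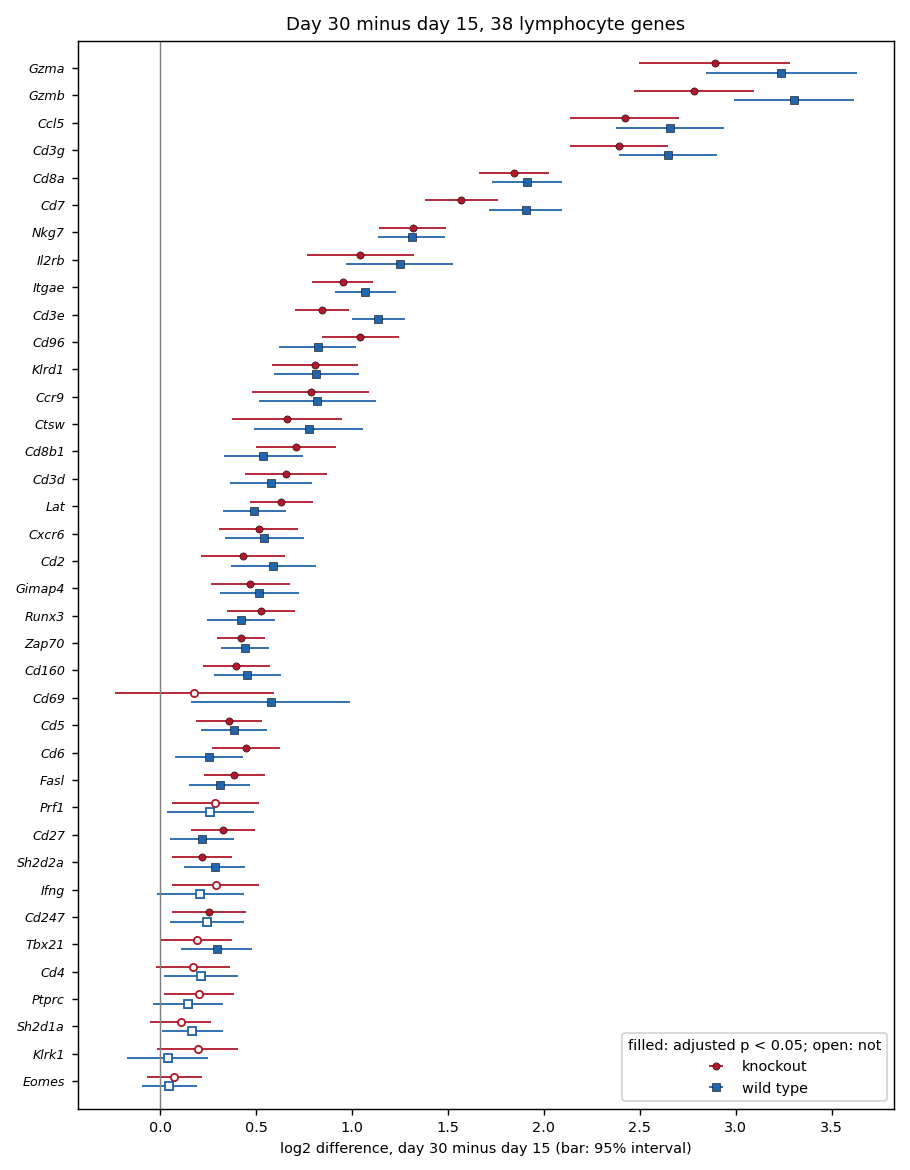
Log2 difference between day 30 and day 15 (horizontal axis) for the 38 members in knockout (circles) and wild type duodenum (squares), ordered by the mean of both, with 95% intervals; filled symbols passed at a limma adjusted p under 0.05. Gzma and Gzmb lie farthest right, at 2.89 and 2.78 in knockout and 3.24 and 3.30 in wild type duodenum, and Eomes has the smallest mean of both.

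The effector genes had the largest median difference of the role groups, 0.99 in knockout and 1.04 in wild type duodenum. Of 8 effectors, 6 rose in knockout and the same number in wild type duodenum. Gzma, the tryptase of cytotoxic granules, had 10.16, 9.86 and 10.19 in knockout duodenum at day 30 and 6.78, 7.07 and 7.69 at day 15. It had 10.03, 10.04 and 9.79 in wild type duodenum at day 30 and 6.59, 6.86 and 6.69 at day 15. All 6 day 30 arrays stood above all 6 day 15 arrays, and the day 15 knockout pools were the most scattered of the groups. The log2 difference of Gzma was 2.89 ± 0.18 (SE, limma adjusted p = 1.43e-07) in knockout and 3.24 ± 0.18 (adjusted p = 6.38e-08) in wild type duodenum, which is 7.41-fold and 9.43-fold.

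Gzmb, the granzyme that activates caspases in target cells, had 9.85, 9.65 and 9.86 in knockout duodenum at day 30 and 6.68, 7.10 and 7.25 at day 15. It had 9.68, 9.60 and 9.46 in wild type duodenum at day 30 and 6.05, 6.55 and 6.22 at day 15. Every knockout array at day 15 was above every wild type array of that day, while the genotypes overlapped at day 30. The log2 difference with age was 2.78 ± 0.14 (SE, limma adjusted p = 2.77e-08) in knockout and 3.30 ± 0.14 (adjusted p = 8.28e-09) in wild type duodenum, or 6.87-fold and 9.87-fold.

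Ccl5, a chemokine stored in cytotoxic T cells, had 10.44, 10.43 and 10.52 in knockout duodenum at day 30 and 7.72, 8.05 and 8.35 at day 15. It had 10.28, 10.28 and 10.09 in wild type duodenum at day 30 and 7.39, 7.73 and 7.56 at day 15. Its days did not overlap, and its log2 differences were 2.42 ± 0.13 (SE) in knockout and 2.66 ± 0.13 in wild type duodenum (limma adjusted p = 3.65e-08 and 1.99e-08). Nkg7, a granule membrane protein needed for degranulation, had 8.13, 8.18 and 8.06 in knockout duodenum at day 30 and 6.65, 6.91 and 6.86 at day 15, and 7.94, 8.00 and 7.96 in wild type duodenum at day 30 and 6.79, 6.67 and 6.51 at day 15. Both genotypes rose by nearly the same amount, 1.32 ± 0.08 (SE) in knockout and 1.31 ± 0.08 in wild type duodenum (limma adjusted p = 1.22e-07 and 1.25e-07). Ctsw, a cysteine protease of cytotoxic lymphocytes, and Fasl, the death ligand, also rose, by 0.66 and 0.39 in knockout and by 0.78 and 0.31 in wild type duodenum.

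Perforin and interferon gamma did not pass in either genotype. Prf1, which forms the pore for granzyme entry, had 7.18, 6.94 and 7.22 in knockout duodenum at day 30 and 6.81, 6.93 and 6.75 at day 15, and 7.42, 7.07 and 7.07 in wild type duodenum at day 30 and 7.04, 6.82 and 6.92 at day 15. Within a genotype the days stood close together but did not overlap, and across genotypes they overlapped. The log2 differences were 0.29 (limma adjusted p = 0.053) in knockout and 0.26 (adjusted p = 0.080) in wild type duodenum. Ifng, the cytokine interferon gamma, differed by 0.29 (adjusted p = 0.053) in knockout and 0.21 (adjusted p = 0.16) in wild type duodenum by the same fit. In knockout duodenum Prf1 passed in 7 and Ifng in 8 of 23 alternatives, so their side of the threshold depends on the processing.

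**Figure D2:**
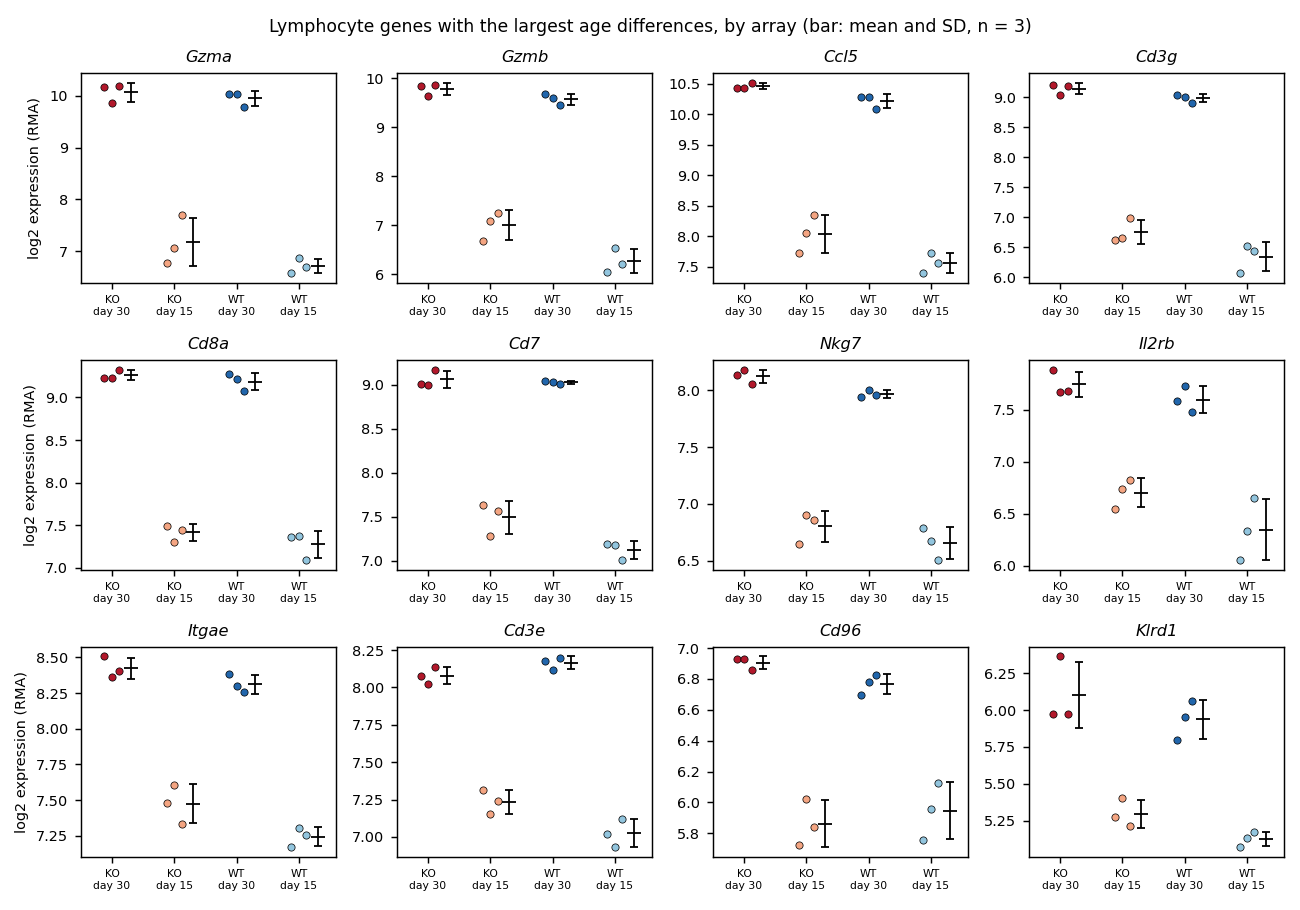
Expression (log2, RMA) of the 12 members with the largest age difference averaged over both genotypes; points are the 3 arrays of each group (KO, Onecut2 knockout; WT, wild type), bars the mean and SD, and each panel has its own scale. In every panel the day 30 arrays stand above the day 15 arrays. For Gzmb, Cd7, Cd3g, Cd3e, Itgae and Klrd1 the day 15 knockout arrays also stand above the day 15 wild type arrays. The share of all genes with that day 15 pattern was not counted, and only Gzmb and Cd7 passed there (limma adjusted p under 0.05).

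In the T cell receptor complex and its co-receptors, 6 of 7 genes rose in knockout and 5 in wild type duodenum. Cd3g, the gamma chain of the CD3 complex, had 9.22, 9.04 and 9.19 in knockout duodenum at day 30 and 6.63, 6.66 and 6.98 at day 15, and 9.05, 9.01 and 8.91 in wild type duodenum at day 30 and 6.07, 6.52 and 6.44 at day 15. The days were more than 1 log2 unit apart in all pools, with differences of 2.39 ± 0.12 (SE, limma adjusted p = 1.76e-08) in knockout and 2.65 ± 0.12 (adjusted p = 8.35e-09) in wild type duodenum. Cd3e, the epsilon chain, had 8.07, 8.02 and 8.14 in knockout duodenum at day 30 and 7.31, 7.15 and 7.24 at day 15, and 8.18, 8.12 and 8.20 in wild type duodenum at day 30 and 7.02, 6.94 and 7.12 at day 15. It rose by 0.84 ± 0.06 (SE) in knockout and 1.14 ± 0.06 in wild type duodenum (limma adjusted p = 6.69e-07 and 6.28e-08). The delta chain gene Cd3d rose by 0.66 in knockout and 0.58 in wild type duodenum. Cd247, the zeta chain, rose by 0.25 (adjusted p = 0.045) in knockout, and its 0.24 (adjusted p = 0.057) in wild type duodenum did not pass. The call of Cd247 in knockout duodenum was kept in 7 of 23 alternatives.

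Both CD8 chains rose, and the Cd4 co-receptor did not pass. Cd8a, whose protein marks most intraepithelial T cells, had 9.23, 9.22 and 9.33 in knockout duodenum at day 30 and 7.50, 7.31 and 7.45 at day 15, and 9.27, 9.22 and 9.07 in wild type duodenum at day 30 and 7.36, 7.37 and 7.09 at day 15. The genotypes overlapped at both days, and the rise was 1.84 ± 0.08 (SE, limma adjusted p = 9.69e-09) in knockout and 1.91 ± 0.08 (adjusted p = 8.35e-09) in wild type duodenum. Cd8b1, the beta chain found on conventional CD8 T cells, rose by 0.71 in knockout and 0.54 in wild type duodenum. Cd4, the co-receptor of helper T cells, had 7.39, 7.199 and 7.11 in knockout duodenum at day 30 and 7.04, 7.13 and 7.01 at day 15, and 7.38, 7.36 and 7.19 in wild type duodenum at day 30 and 7.26, 6.99 and 7.04 at day 15. Its days overlapped, and its differences of 0.17 (limma adjusted p = 0.17) and 0.21 (adjusted p = 0.094) did not pass.

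All 6 surface proteins rose in both genotypes. Cd7, a co-stimulatory protein of T and natural killer cells, had 9.01, 9.0 and 9.18 in knockout duodenum at day 30 and 7.63, 7.28 and 7.57 at day 15, and 9.05, 9.03 and 9.01 in wild type duodenum at day 30 and 7.19, 7.18 and 7.01 at day 15. The genotypes met at day 30 and were apart at day 15, where every knockout pool was higher. Its rise was 1.57 ± 0.09 (SE, limma adjusted p = 5.02e-08) in knockout and 1.91 ± 0.09 (adjusted p = 1.06e-08) in wild type duodenum. Cd96, a receptor for the poliovirus receptor protein Pvr, had 6.93, 6.93 and 6.86 in knockout duodenum at day 30 and 5.72, 6.02 and 5.84 at day 15, and 6.70, 6.78 and 6.83 in wild type duodenum at day 30 and 5.76, 5.96 and 6.12 at day 15. It rose by 1.04 ± 0.09 (SE) in knockout and 0.82 ± 0.09 in wild type duodenum (limma adjusted p = 2.70e-06 and 2.03e-05). The adhesion protein Cd2, the inhibitory receptors Cd5 and Cd6 and the co-stimulatory receptor Cd27 rose by 0.43, 0.36, 0.45 and 0.33 in knockout and by 0.59, 0.39, 0.26 and 0.22 in wild type duodenum. In wild type duodenum Cd27 (limma adjusted p = 0.049) kept its call in 7 of 22 alternatives and Cd6 (adjusted p = 0.030) in 14 of 23.

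Of 6 signalling genes, 4 rose in each genotype. Zap70, the kinase recruited to the CD3 chains, rose by 0.42 in knockout and 0.44 in wild type duodenum, and Lat, the scaffold it phosphorylates, by 0.63 and 0.49. Sh2d2a, an adaptor of activated T cells, rose by 0.22 and 0.28 (calls kept in 14 and 19 of 23 alternatives), and Gimap4, a lymphocyte GTPase, by 0.47 and 0.52. Sh2d1a, the adaptor SAP, differed by 0.11 and 0.17 and did not pass in knockout (limma adjusted p = 0.30) or wild type duodenum (adjusted p = 0.11). Ptprc, the phosphatase CD45 of all white blood cells, had 9.31, 9.40 and 9.18 in knockout duodenum at day 30 and 8.93, 9.17 and 9.20 at day 15, and 9.41, 9.40 and 9.47 in wild type duodenum at day 30 and 9.17, 9.39 and 9.27 at day 15. Its days overlapped in knockout duodenum, and its differences of 0.20 (adjusted p = 0.089) and 0.15 (adjusted p = 0.22) did not pass by limma.

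Among 3 natural killer receptors, Cd160 and Klrd1 rose in both genotypes. Klrd1, the CD94 chain that pairs with NKG2 proteins, had 5.97, 6.36 and 5.97 in knockout duodenum at day 30 and 5.27, 5.40 and 5.22 at day 15, and 5.80, 5.96 and 6.06 in wild type duodenum at day 30 and 5.07, 5.13 and 5.17 at day 15. Its rise was 0.81 ± 0.10 (SE, limma adjusted p = 5.67e-05) in knockout and 0.81 ± 0.10 (adjusted p = 5.17e-05) in wild type duodenum. Cd160, a receptor for the herpesvirus entry mediator, rose by 0.40 and 0.45. Klrk1, the activating receptor NKG2D, differed by 0.20 (adjusted p = 0.15) and 0.04 (adjusted p = 0.80) and did not pass by limma.

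Of 5 genes of homing, residence and cytokine reception, 4 rose in knockout and 5 in wild type duodenum. Itgae, the integrin chain CD103 that holds lymphocytes to the epithelium, had 8.51, 8.36 and 8.40 in knockout duodenum at day 30 and 7.48, 7.61 and 7.33 at day 15, and 8.38, 8.30 and 8.25 in wild type duodenum at day 30 and 7.17, 7.303 and 7.25 at day 15. It rose by 0.95 ± 0.07 (SE) in knockout and 1.07 ± 0.07 in wild type duodenum (limma adjusted p = 8.20e-07 and 3.18e-07). Il2rb, the beta chain shared by the receptors of interleukin 2 and interleukin 15, had 7.88, 7.67 and 7.68 in knockout duodenum at day 30 and 6.55, 6.74 and 6.82 at day 15, and 7.59, 7.73 and 7.47 in wild type duodenum at day 30 and 6.06, 6.34 and 6.65 at day 15. The day 15 wild type pools spread widely, and the rise was 1.04 ± 0.13 (SE, limma adjusted p = 4.60e-05) in knockout and 1.25 ± 0.13 (adjusted p = 9.75e-06) in wild type duodenum. The gut homing receptor Ccr9 rose by 0.78 and 0.82, and Cxcr6, a chemokine receptor of tissue-resident lymphocytes, by 0.51 and 0.54. Cd69, an early activation and residence marker, differed by 0.18 (adjusted p = 0.52) in knockout duodenum, where its day 15 pools had 5.72, 6.62 and 6.19, and rose by 0.58 (adjusted p = 0.038) in wild type duodenum by limma. The wild type call of Cd69 was kept in 13 of 23 alternatives. The difference between those age effects was not past the threshold for any member, as given below.

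The transcription factors had the smallest median difference of the 7 role groups in each genotype, 0.19 in knockout and 0.30 in wild type duodenum. Runx3, the factor that sets the CD8 lineage, rose by 0.52 in knockout and 0.42 in wild type duodenum. Tbx21, which encodes T-bet, rose by 0.30 (limma adjusted p = 0.020, kept in 14 of 23 alternatives) in wild type duodenum, and its 0.19 (adjusted p = 0.12) in knockout duodenum did not pass. Eomes, the related T-box factor, averaged 5.42 and 5.34 in knockout and 5.34 and 5.30 in wild type duodenum at days 30 and 15, and did not pass in either. Eomes was also the dimmest member, at a mean of 5.35 over 12 arrays, and 6 members had means of 6 or less. The 7 members that passed with age in neither genotype were Cd4, Eomes, Ifng, Klrk1, Prf1, Ptprc and Sh2d1a.

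Related genes outside the 40 were read from lists that were also written with earlier results in view. Of 42 further T cell genes, 22 rose and 1 fell in knockout, and 26 rose and 2 fell in wild type duodenum, with median log2 differences of 0.29 and 0.30. Ptpn22, a phosphatase that restrains T cell receptor signalling, rose by 1.26 and 0.96, the co-stimulatory receptor Cd28 by 1.04 and 1.02, the lymphocyte factor Ikzf3 by 0.92 and 0.98, and the inhibitory receptor Tigit by 0.73 and 0.81. Of 31 further genes of cytotoxic, natural killer and innate lymphoid cells, 11 rose and 5 fell in knockout and 12 rose and 5 fell in wild type duodenum. Over all 19938 genes, 3425 fell in knockout and 3394 in wild type duodenum, a share close to that of this list. Klra5, a Ly49 family receptor, rose by 1.71 and 1.43, Il12rb2, a chain of the interleukin 12 receptor, by 0.98 and 0.82, and the granzyme gene Gzmk by 0.51 and 0.59. The genes of this list that fell included Serpinb9, the granzyme B inhibitor, by 1.39 and 0.97, and Prdm1, a factor that suckling enterocytes also express, by 1.27 and 0.63. Of 7 genes of the Gimap family other than Gimap4, 3 rose in knockout and 4 in wild type duodenum, among them Gimap7, by 1.07 and 0.94, and Gimap3, by 0.99 and 1.03.

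Markers of other cells moved over the same days. Over all 19938 genes, 2753 rose and 3425 fell in knockout and 2455 rose and 3394 fell in wild type duodenum. Of 13 B and plasma cell genes, 11 rose in each genotype, and the mean level of the list ranged over arrays from 8.02 to 8.13 in knockout at day 30, 6.76 to 6.93 in knockout at day 15, 8.18 to 8.21 in wild type at day 30 and 6.69 to 6.79 in wild type at day 15. Of 12 smooth muscle genes, 11 fell in knockout and 12 in wild type duodenum. Their mean ranged from 9.83 to 9.90 in knockout at day 30, 10.21 to 10.39 in knockout at day 15, 9.83 to 10.004 in wild type at day 30 and 10.48 to 10.58 in wild type at day 15. Of 13 epithelial genes, 5 rose and 2 fell in knockout and 8 rose and 1 fell in wild type duodenum, with group ranges of the mean of 11.98 to 12.001, 11.88 to 11.94, 11.96 to 12.004 and 11.82 to 11.85 in the same order. Of 11 lymphoid follicle genes, 1 rose in knockout and 3 in wild type duodenum. Of 16 macrophage and dendritic cell genes, 2 rose and 4 fell in knockout and 3 rose and 3 fell in wild type duodenum, and 4 and 3 of 13 mast cell and granulocyte genes fell. When the mean of the smooth muscle list was added to the model as a covariate, 9 members passed as higher in knockout and 6 in wild type duodenum, and with the follicle mean 16 and 0 passed. Both means differ with age themselves, so the covariate and the age term overlap in these fits, and the part of tissue composition in the age differences was not otherwise tested.

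**Figure D3:**
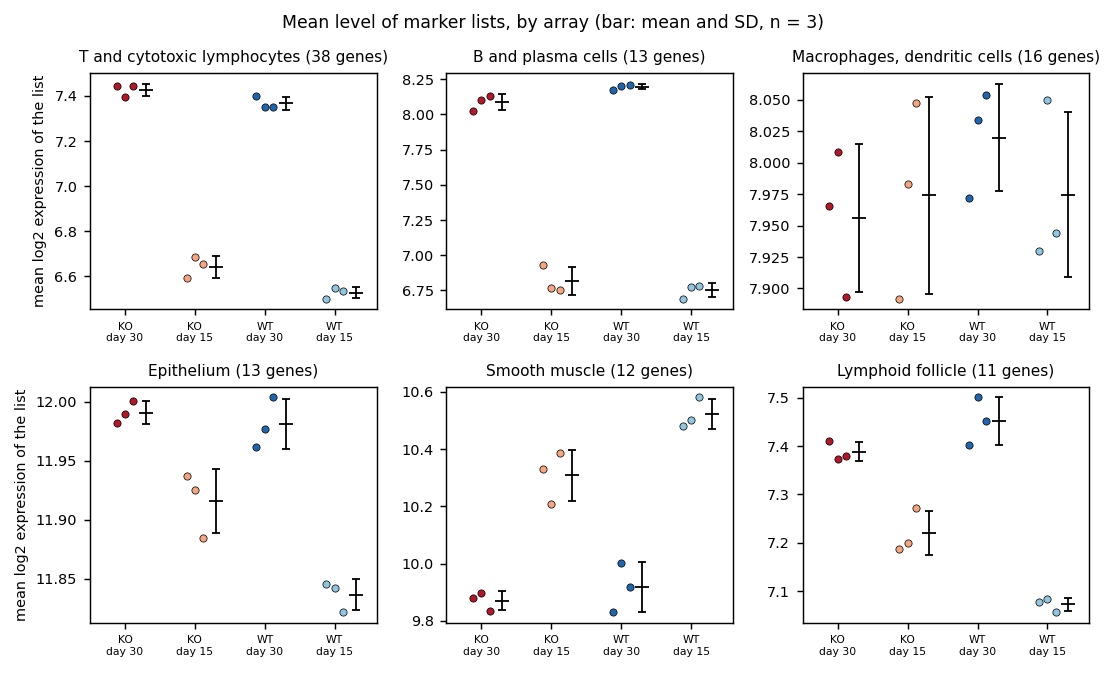
Mean log2 expression per array of the 38 members and of marker lists of other cells; points are the 3 arrays of each group (KO, Onecut2 knockout; WT, wild type), bars the mean and SD, and each panel has its own scale. The members' mean lies between 7.40 and 7.44 in knockout and 7.35 and 7.40 in wild type duodenum at day 30, and between 6.59 and 6.68 in knockout and 6.50 and 6.55 in wild type duodenum at day 15, while the smooth muscle mean is lower at day 30.

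The study also asked how loss of Onecut2 alters the duodenum at each age. At day 15, 2 of the 38 members, Gzmb and Cd7, were higher in knockout than in wild type duodenum (limma adjusted p under 0.05), where 1.81% of all genes were higher. None (0) of the members were lower, where 404 of all 19938 genes were. The median log2 difference of the members was 0.07, against -0.01 for all genes, and 9 members (23.7%) had an unadjusted p under 0.05, where 15.2% of all genes had. Those 9 were all higher in knockout duodenum: Gzmb, Ccl5, Gzma, Cd69, Cd3g, Cd7, Il2rb, Itgae and Cd3e. Gzmb, whose pools at day 15 did not overlap between genotypes, was 0.73 ± 0.14 higher (SE, limma adjusted p = 0.014), or 1.66-fold. Cd7 was 0.37 ± 0.09 higher (SE, limma adjusted p = 0.037). Ccl5 and Cd3g missed the threshold, at 0.48 (limma adjusted p = 0.066) and 0.41 (adjusted p = 0.079), as did Gzma at 0.47 (adjusted p = 0.22). The same pools differed in smooth muscle genes, 2 of 12 of which were lower in knockout duodenum, with a median difference of -0.21. The mean of the follicle genes ranged from 7.19 to 7.27 in knockout and from 7.06 to 7.08 in wild type duodenum, and that of the epithelial genes from 11.88 to 11.94 in knockout and from 11.82 to 11.85 in wild type duodenum, without overlap in either list. The share of all genes whose day 15 pools did not overlap between genotypes was not counted. At day 15, 12 of 13 epithelial genes were above 0 with 0 called by limma (4 at an unadjusted p under 0.05), and 1 of 11 follicle and 2 of 16 macrophage and dendritic cell genes were called higher in knockout duodenum. The part of these cells in the differences of the members was not tested beyond the covariate fits.

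These day 15 calls rested on few pools. In knockout duodenum at day 15, Gzma, Gzmb and Ccl5 were all lowest in replicate 1, the pool that was low in Cxcl10. Without that pool 4 members were called at day 15, and without knockout replicate 3 or wild type replicate 1 of that day 0 were. The adjusted p of Gzmb was 0.073 without knockout replicate 2, 0.060 without knockout replicate 3, 0.056 without wild type replicate 1 and 0.059 without wild type replicate 3 of day 15. Gzmb was called in 16 of 23 alternatives (adjusted p from 0.0021 to 0.72) and Cd7 in 8 of 23 (0.0069 to 0.67) by limma. With smooth muscle as the covariate Gzmb was 0.68 higher (adjusted p = 0.28) and Cd7 0.43 higher (adjusted p = 0.26). With the follicle mean as the covariate the differences were smaller, at 0.41 for Gzmb (adjusted p = 0.72), 0.30 for Cd7 (adjusted p = 0.67) and 0.10 for Ccl5 (adjusted p = 0.94).

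At day 30, 0 of the 38 members differed between knockout and wild type duodenum by limma, where 1.04% of all genes were called higher. None (0) had an unadjusted p under 0.05, where 11.2% of all genes had. The median difference was 0.08, against -0.004 for all genes. The 95% intervals of the members at day 30 ran from -0.37 to 0.53, so differences of these sizes in single genes are not excluded. For Gzmb the interval was -0.10 to 0.52 around 0.21, and for Cd8a -0.11 to 0.26 around 0.07.

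The rise with age was smaller in knockout than in wild type duodenum for 23 of the 38 members (60.5%). The difference of the genotype effects, day 30 minus day 15, was at or below 0 for 47.0% of all genes, whether they rose or fell with age. Its median over the members was -0.03. This difference passed by limma for 0 members, where 0.456% of all genes passed in either direction. An unadjusted p under 0.05 was seen for 3 members (7.89%), against 8.85% of all genes. These were Gzmb at -0.52 ± 0.20 (SE, limma adjusted p = 0.45), Cd7 at -0.34 ± 0.12 (adjusted p = 0.41) and Cd3e at -0.29 ± 0.09 (adjusted p = 0.27). A genotype effect confined to day 15 was therefore not shown. Averaged over both days, Gzmb was 0.47 ± 0.10 (SE, limma adjusted p = 0.018) and Ccl5 0.36 ± 0.09 (adjusted p = 0.040) higher in knockout than in wild type duodenum, and these 2 members compare with 2.48% of all genes called higher. Gzmb kept that call in 18 of 22 alternatives and Ccl5 in 8 of 22.

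**Figure D4:**
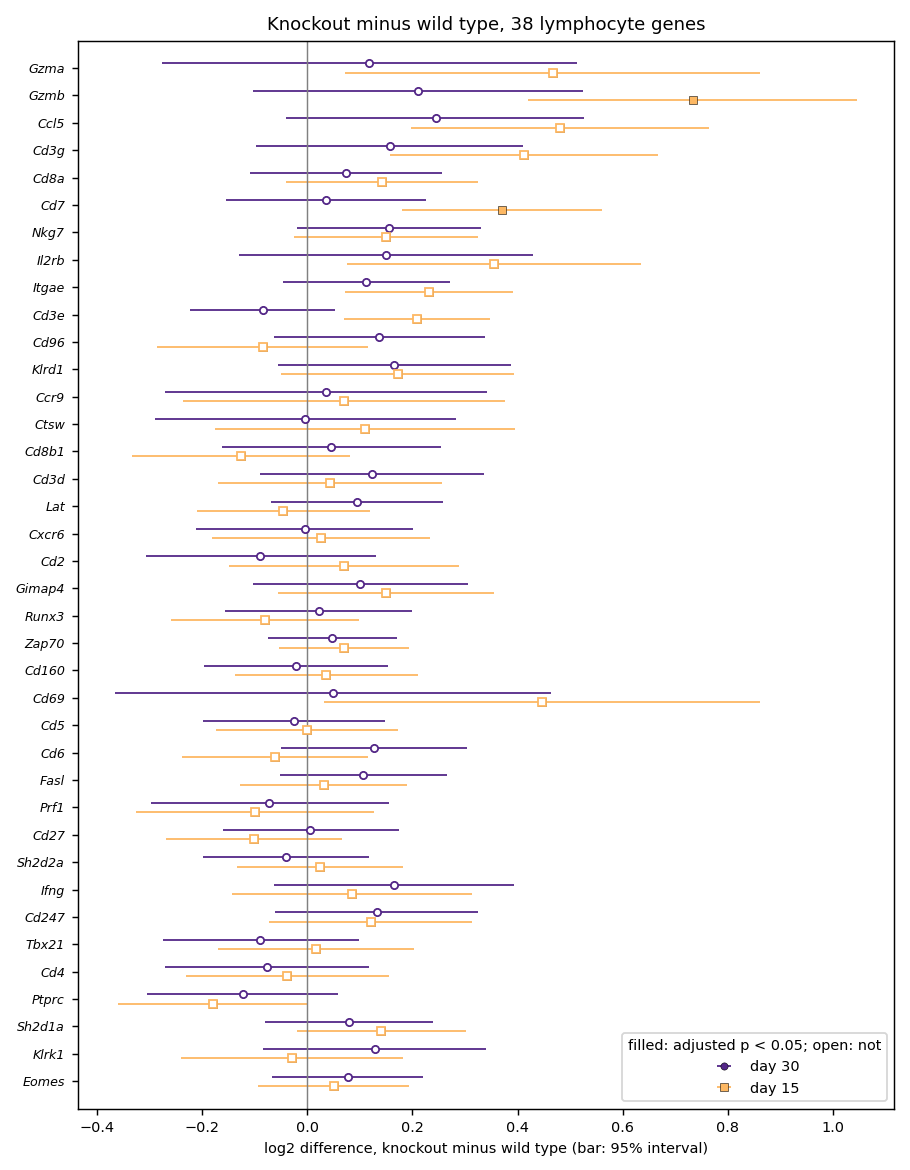
Log2 difference between knockout and wild type duodenum (horizontal axis) for the 38 members at day 30 (circles) and day 15 (squares), with 95% intervals; filled symbols passed at a limma adjusted p under 0.05. Gzmb at 0.73 and Cd7 at 0.37 are the filled symbols, both at day 15, and no member passed at day 30.

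Ligands and epithelial partners of the members' receptors formed a list of 24 measured genes, of which 5 rose with age in knockout and 6 in wild type duodenum and 0 fell in either. At day 15, 2 of the 24 were higher and 2 lower in knockout than in wild type duodenum, where 360 and 404 of all 19938 genes were. Il15, the cytokine that sustains CD8 intraepithelial lymphocytes through Il2rb, had 8.56, 8.96 and 8.38 in knockout duodenum at day 30 and 8.41, 8.44 and 8.44 at day 15, and 8.38, 8.39 and 8.51 in wild type duodenum at day 30 and 7.79, 7.74 and 7.89 at day 15. The day 15 wild type pools were the low group, and the day 15 knockout pools were at the level of day 30. Il15 was higher in knockout than in wild type duodenum at day 15 by 0.62 ± 0.11 (SE, limma adjusted p = 0.0076), a call it kept in 20 of 23 alternatives (adjusted p from 2.32e-04 to 0.37). It rose with age by 0.62 (adjusted p = 8.29e-04) in wild type duodenum, and its 0.20 (adjusted p = 0.19) in knockout duodenum did not pass by limma. The difference of its genotype effects was -0.42 (limma adjusted p = 0.42).

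Il15ra, the chain that presents interleukin 15 to lymphocytes, went the other way at day 15. It had 8.64, 8.77 and 8.76 in knockout duodenum at day 30 and 8.21, 8.31 and 8.39 at day 15, and 8.62, 8.62 and 8.68 in wild type duodenum at day 30 and 8.60, 8.64 and 8.51 at day 15. The day 15 knockout pools were below all the others, by 0.28 ± 0.06 against wild type duodenum of that day (SE, limma adjusted p = 0.028), a call kept in 15 of 23 alternatives. Without both replicate 1 pools of day 15 its difference was -0.23 (adjusted p = 0.18) and that of Il15 was 0.62 (adjusted p = 0.056). Il15ra rose with age by 0.42 (limma adjusted p = 2.03e-04) in knockout duodenum, and its 0.06 (adjusted p = 0.53) in wild type duodenum did not pass. The difference of its genotype effects was 0.36 (adjusted p = 0.13).

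**Figure D5:**
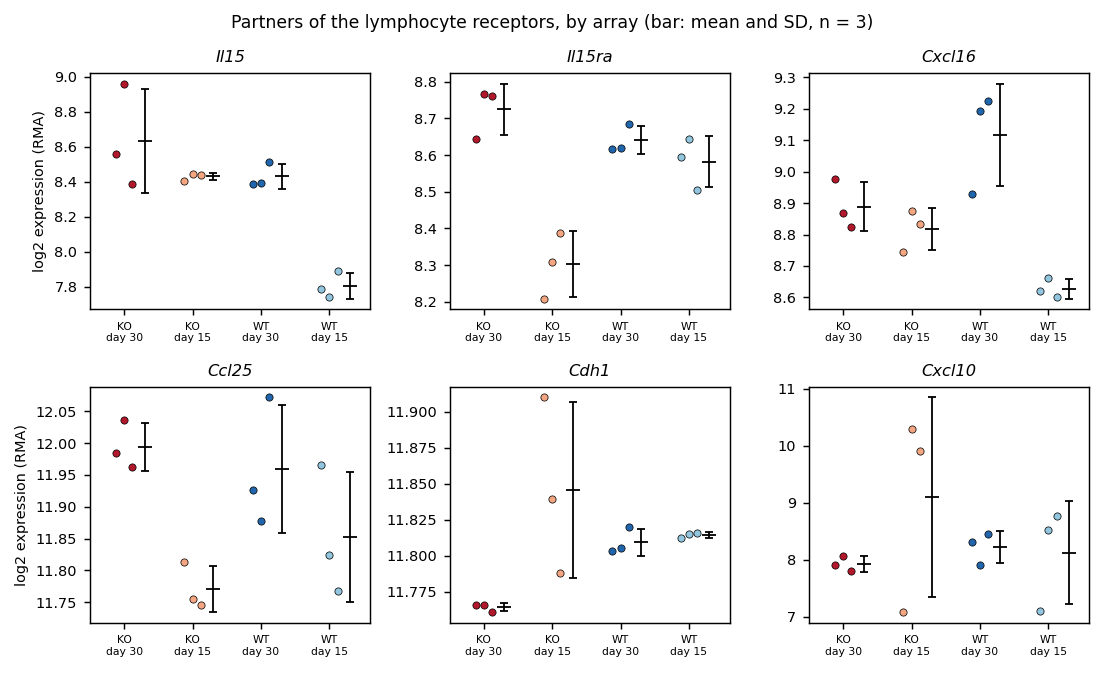
Expression (log2, RMA) of 6 partners of the lymphocyte receptors; points are the 3 arrays of each group (KO, Onecut2 knockout; WT, wild type), bars the mean and SD, and each panel has its own scale. The day 15 knockout arrays of Il15 lie between 8.41 and 8.44 and the day 15 wild type arrays between 7.74 and 7.89, and replicate 1 of day 15 is low in Cxcl10 in both genotypes.

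Chemokines of lymphocyte recruitment were among these partners. The difference of genotype effects passed by limma for 0 of the 24 partners. Ccl25, the ligand of Ccr9, rose by 0.22 (limma adjusted p = 0.021) in knockout duodenum, and its 0.11 (adjusted p = 0.26) in wild type duodenum did not pass. Cxcl16, the ligand of Cxcr6, had 8.98, 8.87 and 8.82 in knockout duodenum at day 30 and 8.74, 8.88 and 8.84 at day 15, and 8.93, 9.19 and 9.23 in wild type duodenum at day 30 and 8.62, 8.66 and 8.60 at day 15. It rose by 0.49 (adjusted p = 3.26e-04) in wild type duodenum, its 0.07 (adjusted p = 0.53) in knockout duodenum did not pass, and the difference of its genotype effects was -0.42 (adjusted p = 0.17) by limma. Ccl20, the chemokine of the epithelium over lymphoid follicles, rose by 1.27 and 1.44. Cdh1, the E-cadherin that binds the Itgae integrin, differed by -0.08 and -0.01 and did not pass in either genotype.

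Other partners were followed as well. Cd48, a ligand of Cd2 carried by white blood cells, rose by 0.52 in knockout and 0.51 in wild type duodenum, and Tnfrsf14, the partner of Cd160, by 0.48 and 0.42. Btnl1, a butyrophilin-like protein through which the epithelium maintains gamma-delta intraepithelial T cells, had 11.08, 11.14 and 11.22 in knockout duodenum at day 30 and 11.17, 11.02 and 11.11 at day 15, and 11.32, 11.28 and 11.31 in wild type duodenum at day 30 and 10.93, 11.22 and 11.12 at day 15. Its rise of 0.21 (limma adjusted p = 0.046) in wild type duodenum was near the threshold, and its 0.05 (adjusted p = 0.65) in knockout duodenum did not pass. Like that of every partner, its difference of genotype effects did not pass. Fas, the receptor of Fasl, was lower in knockout than in wild type duodenum at day 15 by 0.30 (adjusted p = 0.043) and on average over both days by 0.28 (adjusted p = 0.0068) by limma. Ifngr1, a chain of the interferon gamma receptor, was higher in knockout duodenum at day 15 by 0.26 (adjusted p = 0.027) and over both days by 0.17 (adjusted p = 0.030) by limma.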

How the data were processed

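Whole duodenal RNA of 12 pools was hybridised to mouse Affymetrix arrays. The deposited table gives log2 values by feature, computed by the authors with RMA in Affymetrix Expression Console version 1.1, per the submitters' processing notes; the log base was taken as 2 from that method and the range of the values, and the genome build was not given in the sources used. RMA sets all arrays to nearly 1 distribution, and so removes changes that most genes share, and dim features can flatten. Array medians ranged from 7.20 to 7.25, and 0 pairs of arrays were identical.

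Of 35557 features, 21789 had exactly 1 gene symbol. Where a gene had several such features, the feature with the highest mean was used, which left 19938 genes. No filter on low values was applied. A model of 4 group means was fitted to all arrays with limma 3.58.1 in R 4.3.3 (eBayes, 8 residual degrees of freedom), and p-values were adjusted by Benjamini-Hochberg over all genes and called at 0.05. The script was tested on simulated data. Errors are SDs over 3 arrays or the fit's SE. Differences were taken as day 30 minus day 15 and knockout minus wild type.

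The members and lists were chosen with earlier results of these data known. Values per array are given for members called between genotypes and for the 12 with the largest age difference averaged over genotypes, and for genes singled out after their values were seen (Cd4, Prf1, Ptprc and some partners). Of other lists, the text names partners, and up to 4 genes with the smallest p and the first 4 written. Alternatives were trend and robust moderation, a mean above 6, the mean of features, only the arrays compared, a replicate block, array weights, covariates (smooth muscle mean, lymphoid follicle mean or Xist), centring on epithelial genes and leaving out arrays. The promoters of Ccl5 and Cd7 are not in the sequence table.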

Additional observations from a re-analysis of the deposited data

Results flagged for a closer look

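Features that carry several T cell receptor gamma variable symbols were outside the tests, which used features with 1 symbol, and their gene cannot be named. There were 3 of them, with symbols in common, and each was higher in every day 30 array than in every day 15 array. That pattern was seen in 10.1% of all genes tested and in 3 of the 38 alpha variable features with several symbols. The feature with the smallest difference was dim, at 3.5 to 4.39 over the arrays. Their log2 differences, day 30 minus day 15, were 0.61, 1.48 and 1.58 in knockout duodenum and 0.59, 1.24 and 1.55 in wild type duodenum. The gamma variable feature with 1 symbol, Trgv1, differed by 1.1 in knockout and 1.23 in wild type duodenum. The 1 feature with a delta variable symbol alone, Trdv2-2, differed by -0.01 and 0.14, and its days overlapped. The beta variable feature Trbv1 differed by 0.22 and 0.12, with overlap. A beta variable feature with several symbols differed by 0.15 and 0.27, without overlap. The 38 alpha variable features with several symbols differed by -0.05 to 0.33 in knockout and by -0.01 to 0.37 in wild type duodenum. Some of the 38 had identical values on every array, including a pair among the 3 without overlap. They are therefore not all separate measurements. The 7 alpha variable features with 1 symbol differed by -0.15 to 0.83 in knockout and by -0.07 to 0.73 in wild type duodenum. The highest of these, a Trav14-1 feature singled out after its values were seen, did not overlap between days. Its values were low, from 3.75 to 5.27. Another Trav14-1 feature differed by 0.15 in knockout and 0.2 in wild type duodenum, and its days overlapped. These features can share probes with each other, and differences between the gamma, delta, beta and alpha families were not tested.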

How the results depend on the processing

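The counts of members that rose with age were 27 to 31 in knockout and 25 to 30 in wild type duodenum when each array was left out, with medians of 0.477 to 0.53 and 0.488 to 0.56. They fell to 9 and 6 when the smooth muscle mean was a covariate (medians 0.376 and 0.325) and to 16 and 0 with the lymphoid follicle mean (medians 0.676 and 0.677). In those covariate fits some differences changed sign, listed here only for members called with age in the main or the covariate fit. With smooth muscle they were Cd247 -0.036, Cd5 -0.057, Cd6 -0.072 and Ctsw -0.089 in knockout duodenum. In wild type duodenum they were Cd27 -0.039, Cd5 -0.191, Cd6 -0.458, Cd69 -0.09, Ctsw -0.261 and Tbx21 -0.086. With follicle it was Fasl -0.128 in wild type duodenum. The cause was not tested. The age medians were 0.578 in knockout duodenum for genes with a mean above 6, 0.485 in wild type duodenum with Xist as a covariate, and 0.416 and 0.384 with arrays centred on the epithelial genes, a scaling that moved the median of all genes in wild type duodenum to -0.123. For knockout against wild type at day 15, the count called was 0 with only the 6 arrays, 0 with either covariate list, 1 with Xist or epithelial centring, 4 with array weights and 0 to 4 when an array was left out. The medians of the members were 0.016 with smooth muscle, 0.104 with follicle and -0.01 with epithelial centring. Those of all genes were -0.016, -0.002 and -0.089 in the same order. Averaged over both days the count was 4 with trend and robust moderation, 0 with either covariate list, 1 with Xist or epithelial centring and 0 to 2 when an array was left out. The median was 0.016 with epithelial centring, where that of all genes was -0.052. The median difference of genotype effects was 0.002 with smooth muscle and 0.036 with epithelial centring, where that of all genes was 0.013 and 0.078. With the replicate number as a replicate block, 29 and 30 members rose with age and 1 was called at day 15, where Cd7 missed the threshold (adjusted p = 0.053, limma). Same-numbered samples deviated together in 7 of 18 pairs (r over 0.1, range -0.252 to 0.359), and other-numbered samples in 11 of 36. Between genotypes at day 15, r was 0.359 for replicate 1, -0.009 for replicate 2 and 0.261 for replicate 3. For other-numbered pools of that day it ran from -0.358 to 0.187. With so few pools these correlations do not settle whether the numbers pair the samples. The comparisons that need all groups had no fit with only 6 arrays. Signal over background limits the 6 of 38 members with a mean of 6 or less, and compression at low signal was not measured.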
